A study of Homo sapiens with 6 samples.

Results

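The genes described here are 58 genes of human chromosome 10 that were listed because their transcripts tended to be higher in sorafenib-resistant than in control cells. They fall into a segment of the short arm, 10p15 to 10p12, with 27 genes from KLF6 to ARHGAP21, and a segment of the long arm, 10q21 to 10q23, with 31 genes from ANK3 to PAPSS2. All 58 were found among the 19202 genes of the count table, and 56 were among the 10804 genes with enough counts to be tested. The listing used the same resistant against control contrast that is described below, so the values of these genes are a description, and no p-value is given for them. The data go partly against the idea of separate segments, because genes of chromosome 10 outside both segments were also shifted upward.

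RNA sequencing compared 3 libraries of sorafenib-resistant MHCC97H cells with 3 libraries of sorafenib-sensitive control cells. MHCC97H is a metastatic cell line of human hepatocellular carcinoma, and sorafenib blocks several kinases and is given in advanced liver cancer. Both groups are of this 1 line, and the labels do not give how the resistant cells were obtained, whether they are 1 clone or whether drug was present at harvest. The labels do not say whether replicates were separate cultures, so any spread between them may be technical. Levels are CPM, the usual per-library scaling of counts, here with TMM factors, and log2 fold changes are resistant over control.

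Cancer cells often carry gains or losses of chromosome arms. Genes on a gained stretch tend to be transcribed in proportion to their copies, so that neighbours of unrelated function shift by a similar ratio, while single genes can depart from it through their own regulation. The counts described here are of RNA, and no measurement of DNA was analysed here. In such bulk libraries, more cells that express a gene and more RNA of it per cell cannot be told apart.

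The library totals ran from 3745068 to 4961907 counts in resistant cells and from 1913469 to 5345272 counts in control cells. Keratin genes KRT8 and KRT18, the epithelial markers of the line, were high throughout, with KRT8 at 1010 to 1209 CPM in resistant and 1105 to 1401 CPM in control libraries. The hepatocyte gene ALB was low, at 1.62 to 8.39 CPM in resistant and 13.4 to 20.8 CPM in control libraries, and EPCAM was at 0 to 0.818 CPM in resistant and 0.377 to 5.14 CPM in control libraries. All 8 hepatocyte and carcinoma markers summed to 1745 to 2081 CPM in resistant and 1883 to 2347 CPM in control libraries, nearly all of it from KRT8 and KRT18. Among the low hepatocyte genes, the log2 fold change was -1.62 for ALB, -1.47 for APOB, -1.44 for SERPINA1, -0.62 for TF and 0.24 for AFP. Resistant replicate 3 stood apart in the endothelial genes VWF and CDH5. Its 4 endothelial markers summed to 130 CPM, against 40.6 and 50.1 CPM in the other resistant libraries and 50.2 to 68.2 CPM in the control libraries. VWF was at 26.2 CPM and CDH5 at 19.2 CPM in resistant replicate 3, where the other 5 libraries had at most 1.76 and 3.09 CPM. The remaining endothelial markers did not set it clearly apart. PECAM1 was at 41.7 CPM there and at 43.2 CPM in control replicate 1, and KDR was at 42.6 CPM there and at 36.3 CPM in control replicate 2. The blood gene HBB was at 22.6 and 18.5 CPM in control replicates 1 and 3 and at most 0.470 CPM in the other 4 libraries. The 5 fibroblast markers summed to 11.8 to 27.2 CPM in resistant and 14.9 to 32.6 CPM in control libraries, and the 5 blood and immune markers to 10.8 to 14.1 CPM in resistant and 11.3 to 36.0 CPM in control libraries. With resistant replicate 3 left out, the median log2 fold change was 0.46 for the 10p genes and 0.45 for the 10q genes, against 0.37 and 0.43 with all libraries.

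Promoters of 3 of the genes are shown because 2 of them are shared with a divergently transcribed neighbour that had a like fold change, and the third belongs to a gene that departed from its segment downward. Each is the 250 bases before the RefSeq start on the plus strand (GRCh38.p14). Capitals mark, on either strand, matches to GGGCGG of the GC box, to CCAAT of the CCAAT box and to CCGGAA, the core of ETS family sites. TATAAA, the TATA box, had no match in the 3 windows.
CDC123, chr10:12195938-12196187, within the stretch between the RefSeq starts of NUDT5 and CDC123: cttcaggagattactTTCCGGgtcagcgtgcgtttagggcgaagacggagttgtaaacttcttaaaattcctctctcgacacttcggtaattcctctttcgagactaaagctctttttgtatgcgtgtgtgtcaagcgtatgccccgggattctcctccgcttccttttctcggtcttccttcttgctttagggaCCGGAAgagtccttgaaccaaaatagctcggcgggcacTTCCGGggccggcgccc
ADK, chr10:74150971-74151220, within the stretch between the RefSeq starts of AP3M1 and ADK: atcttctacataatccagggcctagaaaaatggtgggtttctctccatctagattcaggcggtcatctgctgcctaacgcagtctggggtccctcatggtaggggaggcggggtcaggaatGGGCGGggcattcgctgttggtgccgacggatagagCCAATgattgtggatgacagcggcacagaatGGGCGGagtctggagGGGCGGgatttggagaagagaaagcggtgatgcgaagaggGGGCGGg
DHTKD1, chr10:12068704-12068953: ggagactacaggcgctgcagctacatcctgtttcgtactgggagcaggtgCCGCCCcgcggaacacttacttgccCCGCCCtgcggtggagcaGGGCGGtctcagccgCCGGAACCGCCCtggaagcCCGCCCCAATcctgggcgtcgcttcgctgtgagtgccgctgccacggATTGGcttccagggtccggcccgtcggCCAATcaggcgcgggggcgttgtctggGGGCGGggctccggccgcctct
The CDC123 window held 3 matches to CCGGAA and none to the other motifs. The ADK window held 4 GC boxes and 1 CCAAT box. The DHTKD1 window held 6 GC boxes, 3 CCAAT boxes and 1 CCGGAA, and 1 of its GC boxes shares a base with a CCAAT box. Its G and C content was 70.8%, against 52.0% for CDC123 and 57.6% for ADK. Of the 58 genes, 51 matched a RefSeq promoter by symbol, with 75 windows, each of the 250 bases before a start. GGGCGG was in 65.3% of these windows and in 42.6% of all 35116 windows. In the same order, CCAAT was in 30.7% and 32.0%, CCGGAA in 21.3% and 14.5%, and TATAAA in 10.7% and 10.7%. The 35116 windows were not limited to genes tested here, and a gene can have several windows. The sets are thus unlike, and nothing is read from the difference in shares. These matches are letters in a window, and nothing was measured at them here. The genes with no entry were ZMIZ1, PPA1, REEP3, DNAJC1, PAPSS2, PPP3CB and VPS26A.

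The whole set was shifted upward by a modest ratio. The median log2 fold change of the 56 tested genes was 0.41, a ratio of 1.33, with quartiles of 0.10 and 0.61. Over all 10804 tested genes the median was -0.01 with quartiles of -0.32 and 0.27. The 25 tested genes of 10p had a median of 0.37 and the 31 of 10q a median of 0.43. A value above 0 was found in 47 of the 56 genes, where 49.4% of all tested genes had one. At edgeR's quasi-likelihood threshold of 0.05 for the adjusted p, 29 of the 56 were called, where the background was 24.1% of all tested genes. Of these, 28 were higher, where the background was 11.7%, and 1 was lower, ANK3, where it was 12.3%. A second gene was called lower without control replicate 2. Since the contrast chose the genes, nothing is read from these counts. Of the 28, 11 lie in 10p and 17 in 10q. All 3 resistant libraries lay above all 3 control libraries for 14 genes of 10p and 17 of 10q, where 19.2% of all tested genes did so, and below for DHTKD1, ANK3 and TSPAN15, where 18.9% did. KIN, DNAJC1, BMI1, ANXA7 and ANXA11 had separate groups without a call, while MCU and ZMIZ1 were called with overlapping groups.

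The shift was of similar size in each resistant library. Taking each gene against its mean log2 level in the control libraries, the 10p genes had medians of 0.42, 0.39 and 0.45 in resistant replicates 1 to 3, against 0.03, 0.02 and -0.04 in control replicates 1 to 3. The 10q genes had medians of 0.40, 0.57 and 0.42 in the resistant and -0.03, 0.03 and -0.02 in the control libraries. No single resistant library carried the shift in either segment.

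**Figure D1:**
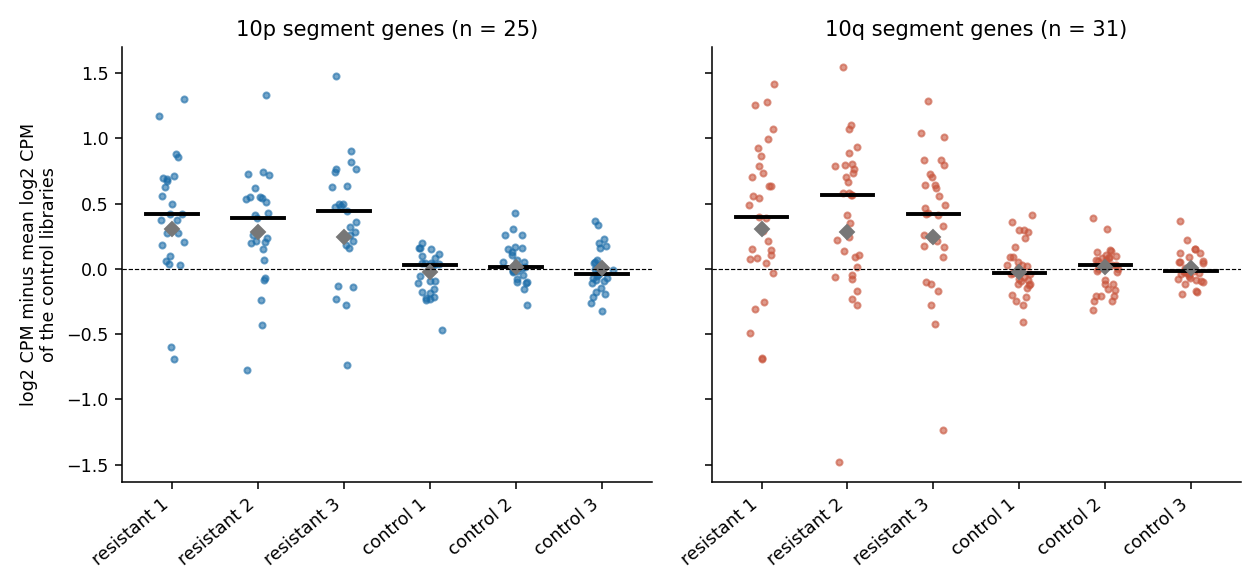
Each point is a gene, as its log2 CPM minus its mean log2 CPM over the control libraries, for the 25 tested genes of 10p (left) and the 31 of 10q (right), by library. Black bars are the medians of the segment genes, between 0.39 and 0.57 in resistant and between -0.04 and 0.03 in control libraries, and grey diamonds are the medians of the 266 chromosome 10 genes outside both segments, between 0.25 and 0.31 in resistant libraries and near 0 in control libraries.

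The upward shift ran along the whole chromosome. Of the 417 tested genes of chromosome 10, 128 were higher and 12 lower in resistant cells by edgeR's test, and their median log2 fold change was 0.30. The medians of the other 22 chromosomes, the autosomes and X, lay between -0.07 and 0.03. Inside the 10p span, from 3775996 to 24723668 (GENCODE 29, GRCh38), the 33 tested genes that were not listed had a median of 0.38, with 9 higher and 1 lower. Inside the 10q span, from 60026298 to 87747705, the 62 such genes had a median of 0.38, with 17 higher and 2 lower. That count of 2 was 1 without control replicate 1, control replicate 2 or resistant replicate 1, and 0 without control replicate 3 or resistant replicate 2. Outside both spans the 266 tested genes had a median of 0.25, with 74 higher and 8 lower. By stretch, the median was 0.36 for the 8 genes beyond the 10p span toward the end of the short arm, 0.24 for the 64 between the spans and 0.25 for the 194 beyond the 10q span. On the 10351 genes of other chromosomes, 1137 were higher and 1316 lower, with a median of -0.02. The genes outside the spans had library medians of 0.31, 0.28 and 0.25 in resistant replicates 1 to 3, against -0.03, 0.01 and 0.01 in control replicates 1 to 3. Their mean difference was 0.28. Each gene was centred on the control libraries, which holds the control medians near 0, so no p-value is given for this difference.

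**Figure D2:**
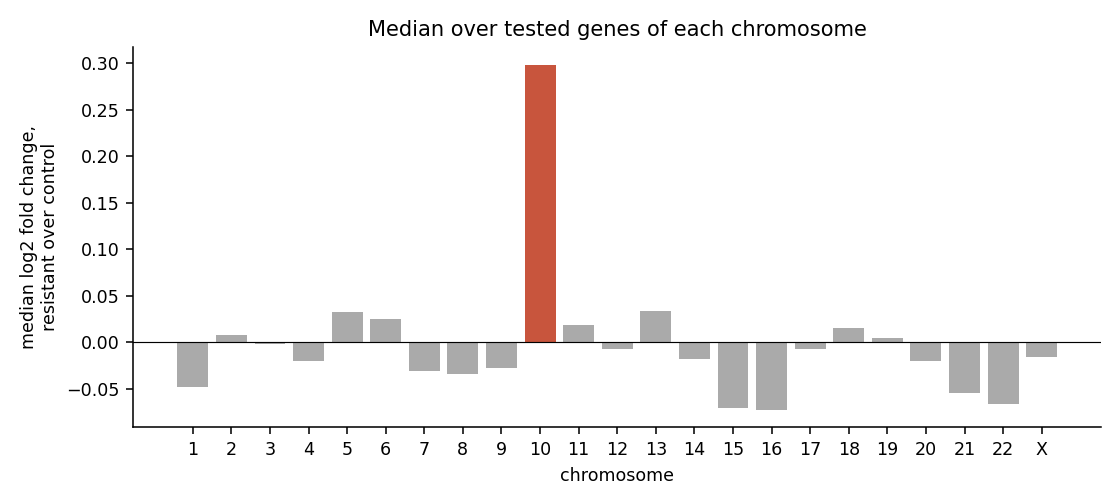
The median log2 fold change, resistant over control, of the tested genes of each chromosome. Chromosome 10 stood at 0.30, and the other 22 lay between -0.07 and 0.03.

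**Figure D3:**
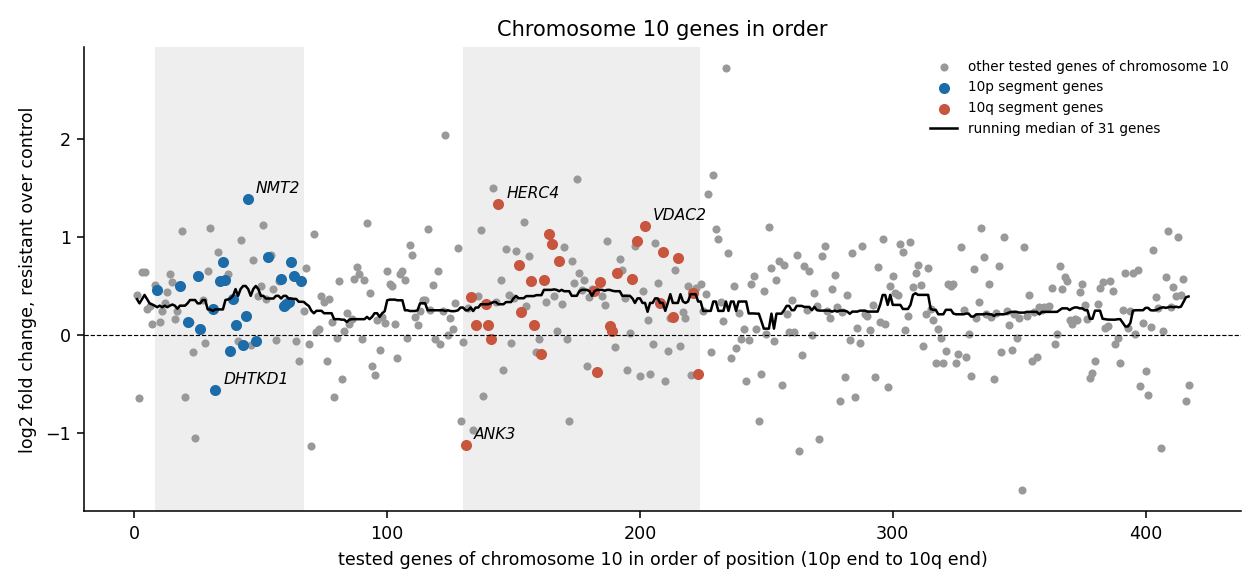
The log2 fold change, resistant over control, of all 417 tested genes of chromosome 10 in order of position, with the genes of the 10p list in blue, those of the 10q list in red, other genes in grey and the spans of both lists shaded. The running median of 31 genes stayed above 0 along the chromosome, inside and outside the shaded spans.

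Within the segments the genes did not move as 1 block. The interquartile range of the log2 fold change was 0.51 over the 56 genes, 0.44 in 10p and 0.64 in 10q, against 0.59 over all tested genes, which were not chosen. Values within 0.25 of the set's own median were found for 46.4% of the 56, and for 43.7% of all tested genes around theirs. The range was narrower in genes of higher level. Among the 30 segment genes with a mean of at least 50 CPM over all 6 libraries the interquartile range was 0.41 and the median 0.56. Among the 3997 genes of other chromosomes with that level they were 0.46 and 0.04. HERC4, SAR1A and UPF2 reached that level only through their resistant libraries, with control means of 46.4, 49.7 and 47.1 CPM. The limit thus favours genes that were higher in resistant cells, and nothing is read from the higher median. Neighbours on the list differed by up to 1.5 on the log2 scale, the difference between ANK3 and RHOBTB1. Other large steps were 1.44 between NMT2 and RSU1, 1.38 between REEP3 and HERC4, 1.19 between RPP38 and NMT2 and 1.11 between DHTKD1 and NUDT5. Over the 56 genes, which share the same 6 libraries, the log2 fold change had a Pearson correlation of 0.16 (Spearman 0.26) with the log2 control level and of -0.22 (Spearman -0.21) with the length of the gene span.

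Outlying genes were those more than 0.5 on the log2 scale, and more than 2 standard errors (SE), from the median of their segment. There were 11, with 2 in 10p and 9 in 10q. Above the median were NMT2 in 10p and HERC4, VDAC2, SAR1A, ADK and PPA1 in 10q. Below it were DHTKD1 in 10p and ANK3, PAPSS2, P4HA1 and TSPAN15 in 10q. The same 11 were found when the median of all tested genes in the span took the place of the list's own median, and a limit of 0.3 in place of 0.5 gave 21.

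**Figure D4:**
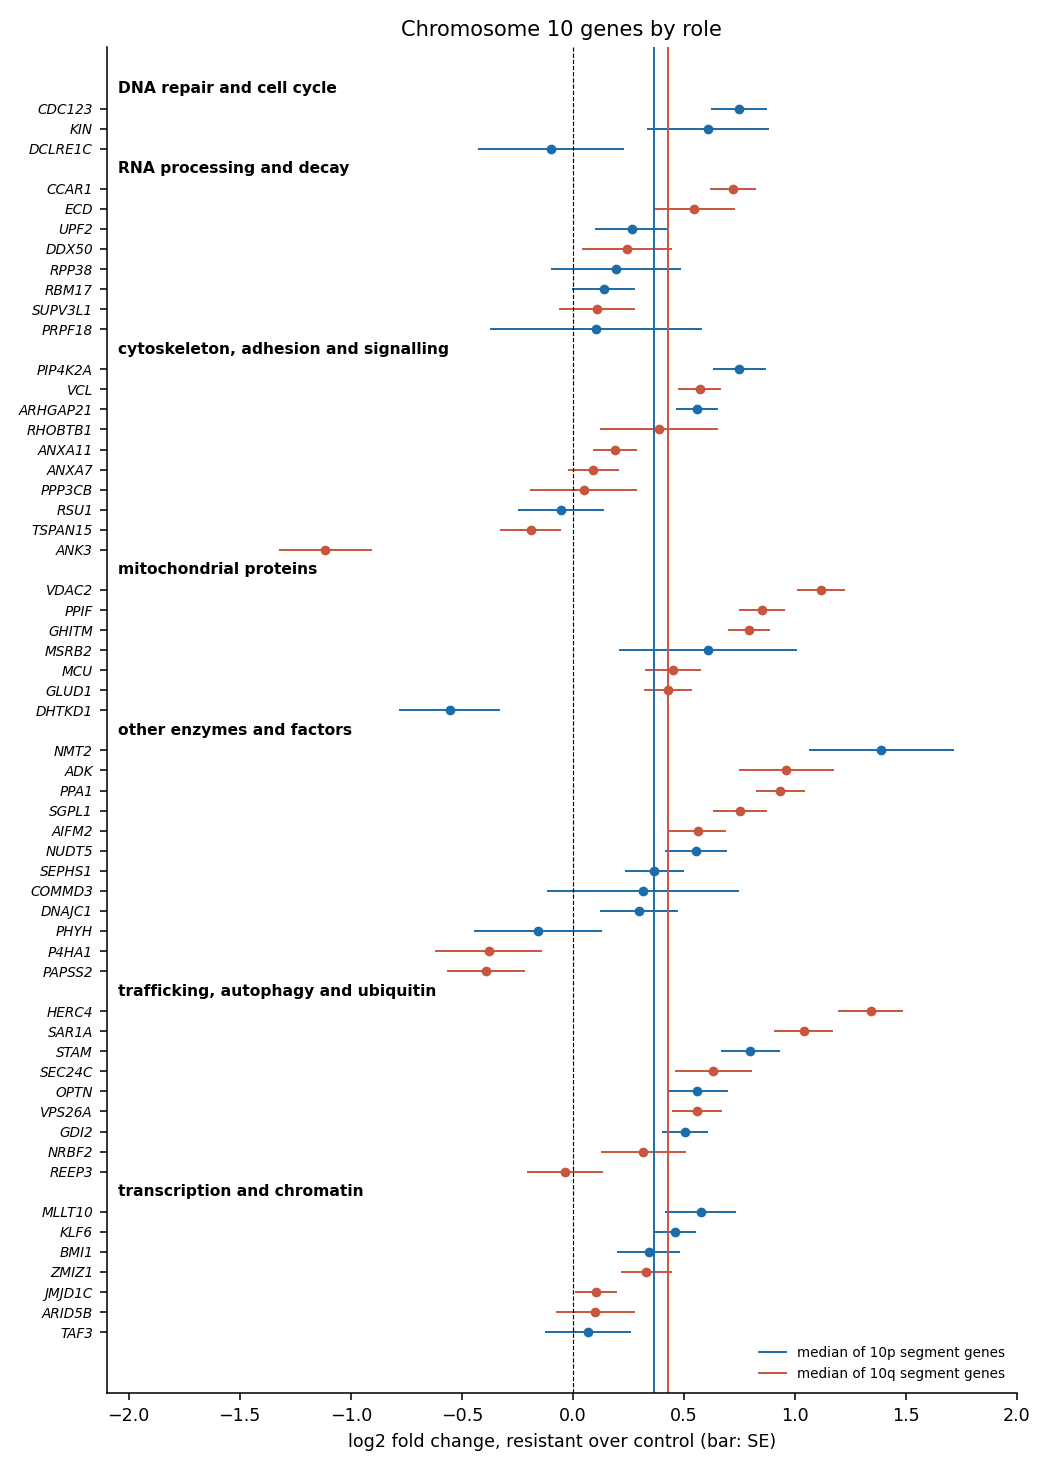
The log2 fold change, resistant over control, with its SE as a bar, of the 56 tested genes grouped by role, 10p genes in blue and 10q genes in red. Vertical lines mark the medians of the segments, 0.37 for 10p and 0.43 for 10q, and the genes run from ANK3 at -1.12 to NMT2 at 1.39.

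Genes of membrane traffic, autophagy and ubiquitin had a median of 0.56, with 7 of 9 called higher, where 11.7% of all tested genes were. In this and the other role groups the contrast chose the genes, so nothing is read from the count. HERC4, a ubiquitin ligase of the HERC family, had 122, 133 and 111 CPM in the resistant libraries, against 33.9, 59.5 and 45.8 CPM in the control libraries. Its groups were wide apart, with a log2 fold change of 1.34 (SE 0.15), a ratio of 2.53. SAR1A, a small GTPase that starts assembly of the COPII coat for export from the endoplasmic reticulum, had 99.6, 105 and 103 CPM in resistant and 48.3, 52.2 and 48.7 CPM in control libraries. Both groups of SAR1A were tight, and the log2 fold change was 1.04 (SE 0.13). STAM, which sorts ubiquitinated receptors on endosomes, had 106, 96.6 and 96.6 CPM in resistant and 58.6, 53.7 and 60.4 CPM in control libraries, a log2 fold change of 0.80 (SE 0.13). GDI2, which recycles Rab GTPases and had the highest CPM of the group, a level not divided by gene length, had 319, 271 and 287 CPM in resistant and 229.8, 204 and 186 CPM in control libraries, a log2 fold change of 0.50 (SE 0.10). All resistant libraries lay above all control libraries for STAM and GDI2. SEC24C, a cargo adaptor of COPII, stood at 0.63, OPTN, an autophagy receptor, at 0.56, and VPS26A, a retromer subunit, at 0.56. NRBF2, of the autophagy lipid kinase complex, stood at 0.32. REEP3, which shapes the endoplasmic reticulum, had 45.5, 39.3 and 37.8 CPM in resistant and 34.5, 41.8 and 47.8 CPM in control libraries. Its groups overlapped, with a log2 fold change of -0.04 (SE 0.17), and from -0.12 to 0.09 as single libraries were left out.

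Genes of mitochondrial proteins had a median of 0.61, with 5 of 7 called higher, where 11.7% of all tested genes were. VDAC2, a channel of the outer membrane that passes metabolites and also binds BAK, had 278, 246 and 232 CPM in resistant and 99.7, 121 and 124 CPM in control libraries. Each resistant library was far above each control library, and the log2 fold change was 1.12 (SE 0.11), a ratio of 2.17. GHITM, an inner membrane protein of the TMBIM family and the gene of highest CPM in the group, had 502, 457 and 479.5 CPM in resistant and 249, 273 and 307 CPM in control libraries. Its groups were also apart, with a log2 fold change of 0.79 (SE 0.09). PPIF, cyclophilin D of the permeability transition pore, stood at 0.85, and MSRB2, a methionine sulfoxide reductase of low level, at 0.61 (SE 0.40). MCU, the pore of the calcium uniporter, stood at 0.45, and GLUD1, glutamate dehydrogenase, at 0.43. DHTKD1, the E1 subunit of the 2-oxoadipate dehydrogenase of lysine breakdown, went the other way. It had 17.6, 15.5 and 22.1 CPM in resistant and 27.8, 29.9 and 23.5 CPM in control libraries, a log2 fold change of -0.55 (SE 0.23). All its resistant libraries lay below all its control libraries. It lies at 12068972 to 12123225 on the plus strand, near NUDT5 and CDC123.

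Other enzymes and factors had a median of 0.46, with 7 of 12 called higher, where 11.7% of all tested genes were. NMT2, 1 of the N-myristoyltransferases that add a lipid to protein ends, had 15.7, 16 and 17.8 CPM in resistant and 5.14, 7.34 and 5.87 CPM in control libraries. Its log2 fold change of 1.39 (SE 0.33) was the highest of the set, and its groups did not overlap. NMT2 (15102584 to 15168693, minus strand) overlaps RPP38 on the opposite strand over 37235 bases, and since no source used here gives the strand setting of the counting, reads of the pair cannot be told apart. ADK, adenosine kinase, had 45.2, 36.0 and 28.9 CPM in resistant and 17.5, 19.0 and 19.4 CPM in control libraries, a log2 fold change of 0.96 (SE 0.21). The resistant libraries of ADK spread more than its control libraries but did not overlap them. PPA1, the cytosolic pyrophosphatase and the gene of highest CPM in the group, had 238, 209 and 202 CPM in resistant and 120.3, 119.6 and 99.4 CPM in control libraries, a log2 fold change of 0.93 (SE 0.11). NUDT5, which cleaves ADP-ribose, had 97.4, 87.7 and 83.7 CPM in resistant and 50.9, 60.1 and 70.1 CPM in control libraries, a log2 fold change of 0.55 (SE 0.14). In both genes the groups were apart. SGPL1, sphingosine-1-phosphate lyase, stood at 0.75, AIFM2, the ferroptosis suppressor FSP1, at 0.56, SEPHS1, a selenophosphate synthetase homologue, at 0.37, COMMD3, of the Commander complex, at 0.32 (SE 0.43), and DNAJC1, an endoplasmic reticulum co-chaperone, at 0.30. The remaining 3 lay below 0. PAPSS2, which makes the sulfate donor PAPS, had 31.1, 41.6 and 41.5 CPM in resistant and 62.2, 40.5 and 50.8 CPM in control libraries, a log2 fold change of -0.39 (SE 0.18). P4HA1, the catalytic subunit of collagen prolyl 4-hydroxylase, had 16.8, 20.2 and 17.6 CPM in resistant and 31.9, 20.0 and 21.1 CPM in control libraries, a log2 fold change of -0.38 (SE 0.24). Control replicate 1 was the highest control library in both genes, and the groups overlapped. Without that library PAPSS2 stood at -0.24 and P4HA1 at -0.16, and without resistant replicate 1 PAPSS2 stood at -0.26. PHYH, the peroxisomal phytanoyl-CoA hydroxylase, had 14.6, 12.0 and 12.1 CPM in resistant and 13.4, 13.2 and 16.4 CPM in control libraries, overlapping groups with a log2 fold change of -0.16 (SE 0.29). PHYH stood at -0.03 without control replicate 3, at -0.24 without resistant replicate 1 and at -0.10 without resistant replicate 2 or 3.

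Genes of cytoskeleton, adhesion and signalling had a median of 0.14, with 3 of 10 called higher and 1 lower, where 11.7% and 12.3% of all tested genes were. VCL, vinculin, which ties integrins to actin and had the highest CPM of the group, had 334, 402 and 395 CPM in resistant and 239.6, 269 and 249.9 CPM in control libraries. Its groups were apart, with a log2 fold change of 0.57 (SE 0.10). PIP4K2A, a phosphoinositide kinase, stood at 0.75 and ARHGAP21, a GTPase-activating protein, at 0.56. RHOBTB1 stood at 0.39 (SE 0.27), and the calcium-dependent phospholipid-binding annexins ANXA11 and ANXA7 at 0.19 and 0.09. PPP3CB, a catalytic subunit of calcineurin, stood at 0.05, and RSU1, which binds the PINCH protein of integrin adhesions, at -0.05. TSPAN15, a tetraspanin that guides the protease ADAM10, had 62.3, 66.1 and 65.9 CPM in resistant and 77.1, 68.5 and 77.2 CPM in control libraries. All its resistant libraries lay below all control libraries by a small margin, with a log2 fold change of -0.19 (SE 0.14). ANK3, ankyrin-G, which anchors membrane proteins to the spectrin skeleton, had 26.8, 15.3 and 18.2 CPM in resistant and 51.4, 39.0 and 41.1 CPM in control libraries. This was the lowest value of the set, a log2 fold change of -1.12 (SE 0.21), at the centromeric end of the 10q segment (60026298 to 60733490, minus strand). The kinase gene CAMK1D and the FERM domain gene FRMD4A were too low to be tested. CAMK1D had 4 counts over the resistant and 20 over the control libraries, the 20 all in control replicate 3, and FRMD4A had 16 over the resistant and 6 over the control libraries.

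Genes of transcription and chromatin had a median of 0.33, with 3 of 7 called higher, where 11.7% of all tested genes were, and all 7 values lay above 0. KLF6, a zinc finger transcription factor, had the highest CPM of the group, with 714, 805 and 776 CPM in resistant and 473, 618 and 572 CPM in control libraries. Its groups were apart, with a log2 fold change of 0.46 (SE 0.09). MLLT10, a cofactor of the histone methyltransferase DOT1L, stood at 0.58, BMI1, a Polycomb subunit, at 0.34, and ZMIZ1, a coactivator of the PIAS-like family, at 0.33. The readthrough symbol COMMD3-BMI1, which covers both genes, was listed at 0 counts in every library. JMJD1C, a Jumonji family protein, had 286, 298 and 312 CPM in resistant and 266, 297 and 269.9 CPM in control libraries. Its groups overlapped, with a log2 fold change of 0.10 (SE 0.09), a narrow error around a value well under the 10q median. ARID5B, an AT-rich DNA binding protein, stood at 0.10 and TAF3, a TFIID subunit, at 0.07.

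Genes of RNA processing and decay had a median of 0.22, with 2 of 8 called higher, where 11.7% of all tested genes were, and all 8 lay above 0. CCAR1, a transcriptional coactivator also found with splicing factors, had the highest CPM of the group, with 230.3, 241 and 234 CPM in resistant and 133, 156 and 136 CPM in control libraries. The log2 fold change of CCAR1 was 0.72 (SE 0.10), with no overlap. ECD, which works with the spliceosome, stood at 0.55 and UPF2, of nonsense-mediated decay, at 0.26. DDX50, a nucleolar helicase, stood at 0.24, RPP38, a subunit of RNase P, at 0.19, RBM17, a splicing factor, at 0.14, SUPV3L1, a mitochondrial RNA helicase, at 0.11, and PRPF18, of the second step of splicing, at 0.10 (SE 0.48). The 3 genes of DNA repair and the cell cycle were split. CDC123, which assembles the translation initiation factor eIF2, had 132, 119.9 and 113 CPM in resistant and 78.7, 72.1 and 67.2 CPM in control libraries, a log2 fold change of 0.75 (SE 0.12) with no overlap. KIN, a nuclear DNA- and RNA-binding protein, stood at 0.61 (SE 0.28). DCLRE1C, the Artemis nuclease of end joining, had 7.04, 12.2 and 13.3 CPM in resistant and 12.3, 12.8 and 9.97 CPM in control libraries. Its groups overlapped, with a log2 fold change of -0.10 (SE 0.33), from -0.26 without resistant replicate 3 to 0.13 without resistant replicate 1, and it overlaps SUV39H2 on the opposite strand over 6957 bases.

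Divergent neighbours within 1000 bases of each other had like values. By their GENCODE ends, 4 such pairs held at least 1 listed gene. NUDT5 and CDC123, whose RefSeq starts lie 297 bases apart, stood at 0.55 and 0.75. AP3M1, a subunit of the AP-3 adaptor complex that was not listed, and ADK, with RefSeq starts 393 bases apart, stood at 0.91 and 0.96. ECD and the unlisted FAM149B1 stood at 0.55 and 0.40, and JMJD1C and REEP3 at 0.10 and -0.04. Within a pair the values differed by at most 0.19, and between pairs they ran from -0.04 to 0.96. In all of these pairs but AP3M1 and ADK the annotated spans overlap at their starts, so reads at the start cannot be assigned with certainty. Closeness was not limited to divergent pairs. Other neighbours on the list were as close, such as DNAJC1 and COMMD3 (0.02 apart) and KLF6 and GDI2 (0.04 apart), while others differed by up to 1.5. No test was made of the likeness within divergent pairs.

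Tested genes inside the spans that were not listed also reached far to both sides. The highest and lowest 3 in each span are given, among those whose higher group mean reached 5 CPM. Highest in 10p were VIM at 1.12, PROSER2 at 1.10 and ANKRD16 at 1.07. PROSER2 had 90.7, 73.6 and 70.6 CPM in resistant and 30.3, 42.6 and 34.0 CPM in control libraries, and rose by edgeR's quasi-likelihood test with an adjusted p of 1.25e-06. VIM, vimentin of the intermediate filaments, had 24.9, 11.8 and 55.6 CPM in resistant and 14.4, 13.7 and 14.7 CPM in control libraries. Its groups overlapped, and the high value was that of resistant replicate 3, the library with high VWF and CDH5. VIM rose by edgeR's test with all libraries (adjusted p = 0.00628), and without resistant replicate 3 its log2 fold change was 0.36 and the call was lost (adjusted p = 0.471 in edgeR's test). ANKRD16 did not pass edgeR's test (adjusted p = 0.0971), but without control replicate 2 it stood at 1.83 and passed (adjusted p = 0.0268). Over all alternatives its adjusted p ran from 0.0268 to 0.282. Lowest in 10p were ITIH2 at -1.04, IL15RA at -0.63 and KIAA1217 at -0.27. ITIH2, an inter-alpha-trypsin inhibitor heavy chain made by the liver, had 57.4, 72.9 and 72.4 CPM in resistant and 157, 132 and 133 CPM in control libraries, and fell by edgeR's test with an adjusted p of 3.48e-08. In 10q the highest were CHST3 at 1.59, DNAJC12 at 1.5 and DDX21 at 1.16, all 3 higher by edgeR's test. DDX21, the nucleolar helicase beside its relative DDX50, had 983, 877 and 921 CPM in resistant and 352, 447 and 439 CPM in control libraries, with an adjusted p of 1.43e-12 in edgeR's test. The lowest in 10q, CDH23 at -0.88, EGR2 at -0.62 and ZCCHC24 at -0.47, did not pass it.

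Relatives of the segment genes on other chromosomes had medians near 0. Paralogs and complex partners played no part in the listing, so they are given with their tests. Of 43 listed paralogs, 40 were tested, and 6 were higher and 9 lower by edgeR's quasi-likelihood test, where 11.7% and 12.3% of all tested genes were, with a median log2 fold change of -0.04. The count of 9 was 4 without control replicate 1, 3 without control replicate 3 or resistant replicate 3, 2 without resistant replicate 2 and 3 in DESeq2. PIP4K2B, MCUB and CCAR2 were not analysed here. In 38 pairs of a tested segment gene and a tested paralog, the median was 0.53 for the segment genes and -0.04 for the paralogs, and the segment gene stood higher in 31 pairs, a direction that the listing favours. Of 62 listed complex partners, 60 were tested, and 8 were higher and 4 lower, where 11.7% and 12.3% of all tested genes were, with a median of 0.01. That count of 4 was 2 without control replicate 3 or resistant replicate 3.

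**Figure D5:**
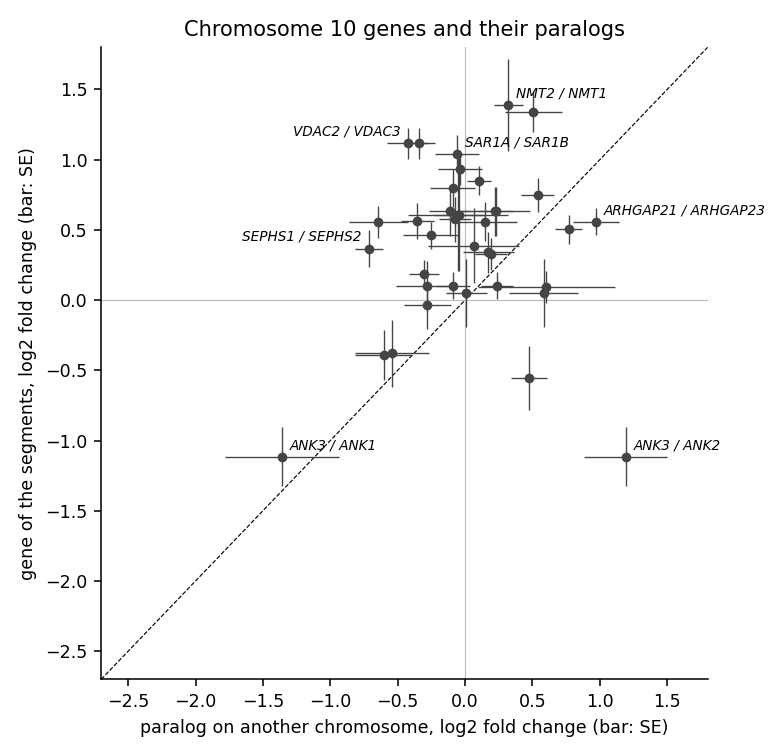
The log2 fold change, resistant over control, of each segment gene (vertical axis) against that of its paralog on another chromosome (horizontal axis), with SE bars, in 38 pairs. In 31 pairs the segment gene lies above the dashed line of equal values, and ANK3 lies far below 0 with 1 paralog on each side of 0.

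Some of the relatives moved on their own. HGS, the partner of STAM in the ESCRT-0 complex, had 395 ± 44.1 CPM in resistant and 238 ± 29.4 CPM in control cells (SD, n = 3 each), and rose by 0.72 on the log2 scale (adjusted p = 9.45e-07 in edgeR's test). STAM itself stood at 0.80. PIP4K2C, a paralog of PIP4K2A, rose by 0.54, and ARHGAP23, that of ARHGAP21, by 0.97. VPS35, which joins VPS26A in the retromer, rose by 0.41. Other partners also moved: POP1 of RNase P rose by 0.84, TAF13 of TFIID by 1.24 and SLU7 of the second step of splicing by 0.73. Each of these 6 passed edgeR's test, with adjusted p-values between 3.07e-05 and 0.00106. The segment genes of POP1, TAF13 and SLU7 were RPP38 at 0.19 (SE 0.29), TAF3 at 0.07 (SE 0.19) and PRPF18 at 0.10 (SE 0.48). They deviated from the 10p median by -0.59, -1.54 and -0.55 SE. All of these lay within the limit of 2 SE, so a shift like that of the segment was not excluded for RPP38, TAF3 or PRPF18.

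Others were lower. FRMD4B, the paralog of the scarcely detected FRMD4A, had 4.98 ± 1.67 CPM in resistant and 27.2 ± 6.06 CPM in control cells (SD, n = 3 each), and fell by 2.41 on the log2 scale (adjusted p = 1.48e-07 in edgeR's test). SEPHS2, the selenophosphate synthetase proper, had 180.0 ± 17.1 CPM in resistant and 294 ± 23.8 CPM in control cells, and fell by 0.71 (adjusted p = 9.63e-07 in edgeR's test), where SEPHS1 stood at 0.37. SMG5, of nonsense-mediated decay, fell by 0.46, while UPF3B of the same pathway, named after its value was seen, rose by 0.49 (adjusted p = 0.00302 in edgeR's test). P4HB, the partner of P4HA1, fell by 0.38, and the adjusted p-values of SMG5 and P4HB in edgeR's test were at most 0.000919. CDC40 of splicing fell by 0.82, ANK1 fell by 1.36 and VDAC1 fell by 0.34, and these 3 calls were each lost in some alternatives. The highest adjusted p over the alternatives was 0.17 for CDC40, 0.184 for ANK1 and 0.218 for VDAC1. CDC40 lost its call in DESeq2 or without control replicate 3 or resistant replicate 3, ANK1 without control replicate 1 or resistant replicate 2, and VDAC1 in DESeq2 or without any of control replicates 1 and 3 and resistant replicates 2 and 3. All 3 also lost it with control replicate 1 and resistant replicate 3 left out together, with adjusted p-values of 0.0738 for CDC40, 0.139 for ANK1 and 0.218 for VDAC1.

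The outlying genes differed in what their relatives did. The values of VDAC3, ANK2, NMT1, OGDH, SAR1B, HERC3, PPA2, PAPSS1 and P4HA2 were chosen after they were seen. VDAC2 stood at 1.12, while VDAC1 was at -0.34 and VDAC3 at -0.42. ANK3 stood at -1.12, with ANK1 at -1.36 and ANK2 at 1.19. DHTKD1 stood at -0.55, while OGDH, the E1 subunit of the related 2-oxoglutarate dehydrogenase, was at 0.48. NMT2 stood at 1.39 and NMT1 at 0.32. SAR1A stood at 1.04 and SAR1B at -0.06, PPA1 at 0.93 and PPA2 at -0.04, and HERC4 at 1.34 and HERC3 at 0.51. PAPSS2 stood at -0.39 and PAPSS1 at -0.60, and P4HA1 at -0.38 and P4HA2 at -0.54. Of these relatives VDAC1, VDAC3, ANK1, ANK2, OGDH, NMT1 and PAPSS1 passed edgeR's test, with adjusted p-values between 0.0033 and 0.0397, and SAR1B, PPA2, HERC3 and P4HA2 did not. In DESeq2 only 3 paralogs were called lower, FRMD4B, SEPHS2 and ANK1, so the calls of VDAC1, VDAC3 and PAPSS1 were lost there. Without resistant replicate 2 only FRMD4B and SEPHS2 were called lower. ADK and TSPAN15 had no paralog on the list.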

How the data were processed

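Per the labels, total RNA of MHCC97H cells was extracted by Trizol and a spin-column kit, then turned into libraries by the EasyRNA-seq protocol. Trimmomatic, HISAT2 and Bowtie2 are named in the submitters' processing notes. The counter, genome build, annotation and strand setting are not given in the sources. The authors deposited whole-number counts per gene symbol, not normalized, for 19202 genes, in 1 table whose 6 columns equalled the single-library files. Dates stood in place of 27 symbols, which were restored from the Entrez ID. Between 63.6 and 69.1% of non-zero counts per library were even, so a count may not be 1 molecule. No replicates were found to be repeats of each other, where chi-square over its degrees of freedom was at least 1.77 on halved counts.

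After filterByExpr and TMM scaling, edgeR 4.0.16 in R 4.3.3 fitted all 6 libraries by group alone, with its quasi-likelihood F test. P-values were adjusted by Benjamini-Hochberg over 10804 genes, with calls at 0.05. The SE is the log2 fold change over the square root of F. The biological coefficient of variation was 13.0%. The fit was tested on simulated data. It recovered 42.4% of genes changed 1.5-fold, 81.8% of those changed 2-fold and 96.9% of those changed 4-fold, with 7 false calls among 151. A gene without a call may thus still have shifted by a modest ratio. Per-library medians used log2 CPM with a prior count of 2. Positions were matched by symbol to GENCODE 29 for 19105 genes, and promoters to RefSeq. Alternatives were DESeq2 1.42.0, other scaling and filters, a replicate block, halved counts and leaving out libraries. Figures were drawn with matplotlib 3.10.9.

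The genes, the lists of paralogs, partners and markers, and the tests were chosen with earlier results of these data known. Named in full were, in each segment, the 3 largest and 3 smallest log2 fold changes, outlying genes, the most abundant gene of each role, genes not tested and divergent pairs. Of unlisted genes with at least 5 CPM the 3 highest and 3 lowest per span were named, and of called paralogs and partners up to 8 per direction by p. A few genes picked by this rule are left out here.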

Additional observations from a re-analysis of the deposited data

How the results depend on the processing

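The number of segment genes called higher was 28, and 24 to 28 over 14 alternatives, always among the same 28. The calls lost in some were SEPHS1, ZMIZ1, ECD, MCU, MLLT10 and OPTN. Of the 23 segment genes described by library, DCLRE1C (-0.26 to 0.13) and REEP3 (-0.12 to 0.09) changed sign in some alternatives, and the others did not. No alternative moved the median of all genes beyond -0.04 or 0.01. The unlisted genes lower in the 10q span numbered 2, and 1 with a filter of 1 CPM in 3 libraries, DESeq2, no filter or the replicate block. Those lower between the spans numbered 2, and 1 with DESeq2 or the replicate block. The paralogs called lower numbered 9, and 3 with DESeq2. With control replicate 1 and resistant replicate 3 left out together, chosen after the data were seen, the 10p median was 0.40, 5 unlisted genes were higher in the 10p span, 1 was lower in the 10q span and 1 between the spans, and 2 paralogs were lower. A deviation over 0.3 gave 21 outlying genes. At a mean of 50 CPM or more over all libraries, also chosen after the data were seen, interquartile ranges were 0.41 for the segment genes and 0.46 for other chromosomes. Leaving out 1 library at a time gave 10p medians of 0.37 to 0.49 and 10q medians of 0.38 to 0.50. It gave 1 to 2 genes lower among the 10q genes, 0 to 2 unlisted genes lower in the 10q span, 1 to 2 between the spans (1 without control replicate 3, resistant replicate 2 or resistant replicate 3), 2 to 7 paralogs and 2 to 6 partners lower. The lowest paralog count, 2, came without resistant replicate 2, and partners fell to 2 without control replicate 3 or resistant replicate 3. The replicate block called 27 segment genes higher. Same-numbered libraries correlated at -0.02, 0.03 and -0.01 in their deviations, so no pairing by number was seen. So few libraries cannot exclude one. The cause of these changes was not tested. Low counts limit CAMK1D, FRMD4A, PRPF18, COMMD3 and MSRB2, whose SE reached 0.40 or more where tested.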
